A study of Mus musculus with 4 samples.

Results

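A set of 38 genes of glycolysis and of the response to low oxygen was examined in the mouse thymic lymphoma line T29 with and without a gamma-secretase inhibitor. The genes were selected on earlier results of the same arrays, that is on their log2 differences between replicate 2 and replicate 1 and between GSI and DMSO. Each was represented by its brightest probe set that the platform annotation pairs with no other gene. That rule found 35 of the 38 genes. Gpi1, Eno1 and Bnip3l had no such probe set. Gapdh was matched only by 3 control probe sets, so 34 genes entered the gene-level comparison, out of 18193 genes measured.

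The study compared 2 groups of 2 arrays. One group was T29 cells treated with DMSO, the solvent control, and the other was T29 cells treated with MRK003, abbreviated GSI here, at a dose the labels write as 5 mM for 36 h. No source used here allowed the dose unit to be checked. The labels carry one treatment text for every sample, so the groups rest on the sample titles, and they give no genotype for the line and do not say whether replicates were separate cultures. Both groups are 1 cell line grown in the same medium. The p-values below therefore measure the spread between these arrays, which may be technical.

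Glycolysis splits glucose into pyruvate and yields ATP without oxygen. Hypoxia-inducible factor, a dimer of an oxygen-labile alpha subunit (Hif1a or Epas1) and the stable subunit Arnt, raises transcription of most glycolytic enzymes when oxygen is short. Prolyl hydroxylases (Egln1 to Egln3 as named in mouse) mark the alpha subunit for destruction when oxygen is present, mainly by controlling the protein and not its mRNA. In T-lineage cells Notch signalling, which gamma-secretase inhibitors block, is known to promote glucose uptake and glycolysis.

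In DMSO all 34 genes were higher on replicate 2, against 44.2% of all genes. In GSI 30 were higher on replicate 2, against 45.9%, and 30 were so in both groups, against 19.9%. The median difference was 0.93 on the log2 scale between the DMSO arrays and 0.34 between the GSI arrays. Over all 18193 genes the same medians were -0.02 and -0.01. Of the 34 genes, 0 passed limma between GSI and DMSO at an adjusted p under 0.05, against 4.12% of all genes. The mean was lower with GSI in 26, against 53% of all genes. Because the set was assembled with the replicate differences known, those differences are given as a description, with no test. The group differences were known as well, so the count of 26 is likewise a description. Differences between replicates are also the residual spread of the limma fit, so choosing genes by them makes a pass between groups less likely.

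The promoters of the 5 genes with the largest difference present in both groups are shown, because the genes were high on the same arrays and because hypoxia-inducible factor is known to bind a short core motif. Each sequence is RefSeq's for GRCm38.p6 and runs 5′ to 3′ on the gene's strand, from 250 bases before to 50 bases after the annotated start site. Capitals mark ACGTG or GCGTG on either strand, the letters of the core motif. They lie at chr8:45999801-46000100 (minus strand) for Ankrd37, chr7:138909457-138909756 (minus) for Bnip3, chr4:119108495-119108794 (plus) for Slc2a1, chr10:59323046-59323345 (plus) for P4ha1 and chr10:78009758-78010057 (minus) for Pfkl.
Ankrd37: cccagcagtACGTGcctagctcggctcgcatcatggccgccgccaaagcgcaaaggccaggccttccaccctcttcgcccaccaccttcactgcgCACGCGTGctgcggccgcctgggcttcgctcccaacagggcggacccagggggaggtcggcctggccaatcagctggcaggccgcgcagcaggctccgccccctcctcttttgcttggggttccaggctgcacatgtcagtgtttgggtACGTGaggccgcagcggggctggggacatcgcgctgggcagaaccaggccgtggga
Bnip3: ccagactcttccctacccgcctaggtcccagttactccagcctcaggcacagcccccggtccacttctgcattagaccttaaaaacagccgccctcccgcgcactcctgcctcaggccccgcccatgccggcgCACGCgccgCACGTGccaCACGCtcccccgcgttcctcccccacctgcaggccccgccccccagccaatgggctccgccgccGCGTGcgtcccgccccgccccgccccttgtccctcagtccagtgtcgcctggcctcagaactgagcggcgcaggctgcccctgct
Slc2a1: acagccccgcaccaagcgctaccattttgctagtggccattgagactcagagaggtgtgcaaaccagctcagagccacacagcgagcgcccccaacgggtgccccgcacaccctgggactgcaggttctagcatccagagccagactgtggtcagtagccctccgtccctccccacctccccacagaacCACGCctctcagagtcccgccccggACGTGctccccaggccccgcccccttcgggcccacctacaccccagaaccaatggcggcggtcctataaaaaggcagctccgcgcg
P4ha1: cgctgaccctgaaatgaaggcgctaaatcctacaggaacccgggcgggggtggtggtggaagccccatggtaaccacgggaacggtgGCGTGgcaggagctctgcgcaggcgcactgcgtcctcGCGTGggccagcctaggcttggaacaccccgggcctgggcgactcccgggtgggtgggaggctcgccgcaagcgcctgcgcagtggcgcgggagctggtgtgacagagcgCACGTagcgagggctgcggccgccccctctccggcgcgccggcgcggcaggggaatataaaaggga
Pfkl: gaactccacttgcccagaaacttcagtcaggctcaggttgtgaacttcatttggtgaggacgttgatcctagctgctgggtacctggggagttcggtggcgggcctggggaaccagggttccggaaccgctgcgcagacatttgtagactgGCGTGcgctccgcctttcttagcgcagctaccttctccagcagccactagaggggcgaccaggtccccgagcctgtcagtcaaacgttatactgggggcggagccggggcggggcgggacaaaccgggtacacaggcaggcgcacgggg
The windows hold 4 matches for Ankrd37, 5 for Bnip3, 2 for Slc2a1, 3 for P4ha1 and 1 for Pfkl. Overlapping matches were counted separately, so CACGTG, which reads the same on both strands, gives 2 starts. Of the 31 genes with a promoter in the table, 26 (83.9%) held at least 1 match and 19 (61.3%) at least 2. Among all 27025 promoters, 1 per gene, 43.8% held at least 1 and 20.8% at least 2. The promoters of the 31 genes were also richer in G and C, with a median of 65%, against 52.7% over all promoters, and both motifs contain such bases. Slc2a3, Ndrg1 and Zfp395 had no entry. The set was chosen as glycolysis and hypoxia response genes, so the motif shares describe it and are no evidence about these arrays.

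Median log2 values were 4.86 to 4.89 per array, and arrays correlated at 0.9915 to 0.997 over probe sets, a description in which probe sets are no replicates. The hybridisation controls averaged 8.88 and 8.91 with DMSO and 8.73 and 8.83 with GSI. The labels' T lineage was borne out by 7 of 8 measured markers, which lay between 9.64 and 12.65, while Cd5 lay between 3.71 and 4.30. Dtx1, a Notch target, fell by 3.53 on the log2 scale (limma, adjusted p = 0.000534), and Hes1, Nrarp, Il2ra and Myc fell by 2.26, 2.42, 2.87 and 0.62 (adjusted p = 0.00101, 0.00101, 0.00101 and 0.039). Their DMSO replicates differed by at most 0.28.

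**Figure D1:**
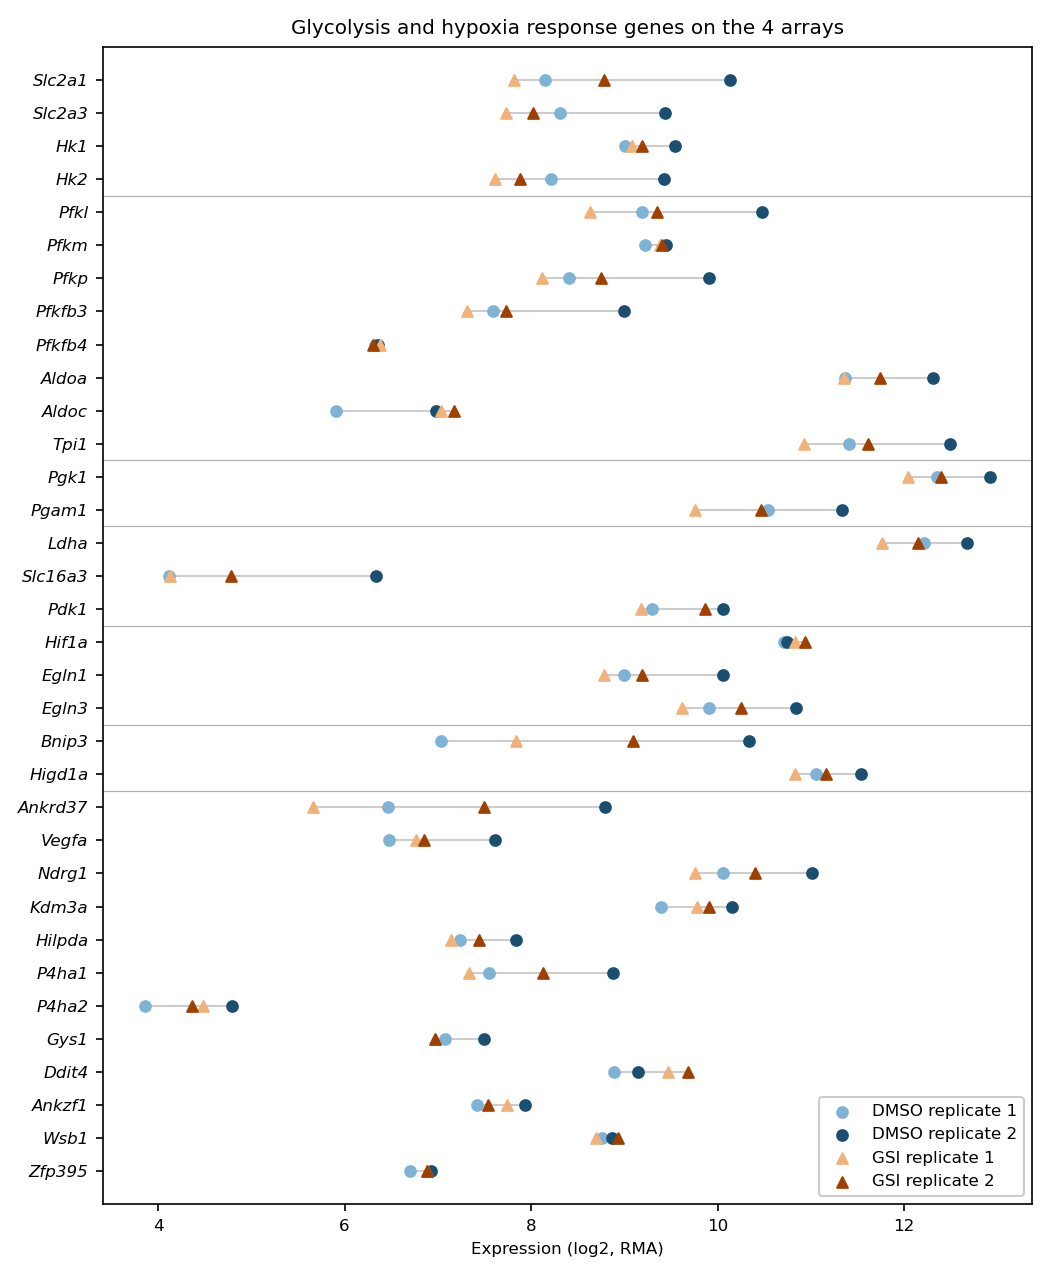
Log2 expression of the 34 genes on each of the 4 arrays, with circles for DMSO, triangles for GSI, lighter symbols for replicate 1 and darker for replicate 2, and a grey bar from the lowest to the highest array. DMSO replicate 2 was the highest array for 29 genes and GSI replicate 1 the lowest for 21.

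Glucose entry genes showed the pattern clearly. Slc2a1, encoding the glucose transporter GLUT1, had log2 values of 8.15 and 10.13 with DMSO and 7.81 and 8.79 with GSI, listing replicate 1 before replicate 2 here and below. DMSO replicate 2 stood 3.96-fold above DMSO replicate 1, and GSI replicate 2 1.96-fold above GSI replicate 1, so the groups overlapped. The mean difference, GSI minus DMSO, was -0.84 with a 95% interval from -2.45 to 0.77 (limma, adjusted p = 0.527). The gene ranked 7 of 18193 by its difference between the DMSO arrays and 8 by that between the GSI arrays.

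Slc2a3, encoding the high-affinity transporter GLUT3, measured 8.31 and 9.43 with DMSO and 7.74 and 8.02 with GSI. Here both GSI arrays lay below both DMSO arrays, with a mean difference of -0.997 (SE 0.35; limma, adjusted p = 0.179). Hk2, the inducible hexokinase that traps glucose in the cell, showed the same order of arrays, with 8.21 and 9.42 with DMSO and 7.62 and 7.88 with GSI and a difference of -1.07 (SE 0.37; limma, adjusted p = 0.178). Its more uniformly expressed relative Hk1 measured 9.01 and 9.54 with DMSO and 9.08 and 9.18 with GSI and differed by -0.14 (adjusted p = 0.71). Between the DMSO arrays Hk2 differed by 1.21 and Hk1 by 0.53.

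In upper glycolysis the isoforms of one enzyme did not vary together. Phosphofructokinase commits sugar to glycolysis, and its liver-type gene Pfkl measured 9.19 and 10.48 with DMSO and 8.63 and 9.35 with GSI. The platelet-type gene Pfkp measured 8.41 and 9.91 with DMSO and 8.12 and 8.75 with GSI. Both were highest on DMSO replicate 2 and lowest on GSI replicate 1, and the groups overlapped. The muscle-type gene Pfkm spanned only 9.22 to 9.44 over the 4 arrays. Their GSI minus DMSO differences were -0.84, -0.72 and 0.065 (limma, adjusted p = 0.342, 0.458 and 0.785).

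The same split held for the genes of the bifunctional enzyme that sets the level of the phosphofructokinase activator. Pfkfb3 measured 7.59 and 9.0 with DMSO and 7.32 and 7.73 with GSI, a difference of 1.41 between the DMSO arrays. Pfkfb4 lay between 6.30 and 6.38 on all 4 arrays. Neither passed between GSI and DMSO (limma, adjusted p = 0.38 and 0.996).

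Aldolases cleave the phosphorylated sugar. The main isoform gene Aldoa measured 11.36 and 12.31 with DMSO and 11.36 and 11.74 with GSI, so that DMSO replicate 1 and GSI replicate 1 were within 0.01 of each other and the replicates numbered 2 were higher. Aldoc, the brain-type isoform, measured 5.90 and 6.98 with DMSO and 7.03 and 7.17 with GSI. It was the 1 glycolysis gene of the 34 with both GSI arrays above both DMSO arrays. Its difference of 0.66 (SE 0.33) did not pass limma (adjusted p = 0.319). Its other probe set, which was dim at a mean of 2.92, differed the other way by -0.30, and with the probe sets averaged the difference was 0.18. Tpi1, which interconverts the triose phosphates, measured 11.41 and 12.49 with DMSO and 10.93 and 11.61 with GSI and differed by -0.68 (adjusted p = 0.374).

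In lower glycolysis, where ATP is made, the genes tested were Pgk1 and Pgam1, with differences of 0.56 and 0.80 between the DMSO arrays. Pgk1, encoding phosphoglycerate kinase, measured 12.36 and 12.92 with DMSO and 12.04 and 12.39 with GSI, and DMSO replicate 1 nearly coincided with GSI replicate 2. Pgam1, encoding phosphoglycerate mutase, measured 10.54 and 11.34 with DMSO and 9.76 and 10.47 with GSI. Its GSI arrays lay below both DMSO arrays, but by only 10.47 against 10.54 at the nearest point. The differences between groups were -0.42 for Pgk1 and -0.83 for Pgam1 (limma, adjusted p = 0.32 and 0.219).

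Gapdh, encoding the dehydrogenase between Tpi1 and Pgk1, was read from its control probe sets and not tested. The brightest, at the 3′ end, measured 13.24 and 13.41 with DMSO and 13.06 and 13.19 with GSI. All 3 of its probe sets were higher on replicate 2 in both groups, by 0.12 to 0.17 with DMSO and 0.13 to 0.16 with GSI. The 3′ minus 5′ signal of Gapdh was 0.018 and 0.068 with DMSO and 0.057 and 0.026 with GSI, and that of actin was 0.34 and 0.38 with DMSO and 0.32 and 0.35 with GSI. Whether RNA quality had a part in the differences was not tested.

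The set holds 3 genes that govern what becomes of pyruvate. Ldha, encoding the lactate dehydrogenase subunit that favours lactate, measured 12.21 and 12.67 with DMSO and 11.77 and 12.16 with GSI, with both GSI arrays lower than both DMSO arrays and a difference of -0.48 (SE 0.19; limma, adjusted p = 0.229). Slc16a3, encoding a lactate exporter, measured 4.11 and 6.34 with DMSO and 4.12 and 4.78 with GSI. It lay below the array medians on 3 arrays and above them only on DMSO replicate 2, 4.68-fold above DMSO replicate 1. Values that low carry background signal, so that size is uncertain. Pdk1, which restrains entry of pyruvate into mitochondria by inactivating pyruvate dehydrogenase, measured 9.30 and 10.06 with DMSO and 9.18 and 9.87 with GSI. On the probe set used, its replicate differences were nearly equal, 0.76 with DMSO and 0.69 with GSI. Its group difference was -0.16 (limma, adjusted p = 0.833). Its other probe sets differed more with DMSO, by 0.82, 0.69 and 1.27, than with GSI, by 0.54, 0.31 and 0.45. Their group differences were -0.44, -0.36 and -0.02, and the last named was dim.

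The mRNA of the oxygen-regulated subunit itself varied little. Hif1a measured 10.71 and 10.75 with DMSO and 10.83 and 10.94 with GSI, a range of 0.22, and ranked 6483 of 18193 by its difference between the DMSO arrays. GSI exceeded DMSO on both arrays by a mean of 0.15, which did not pass (limma, adjusted p = 0.377; 95% interval -0.061 to 0.37). Its other probe sets with means of 8.22 and 7.72 differed by -0.006 and 0.094, and the dimmest, at 4.33, by 0.27. On those at 8.22 and 7.72, GSI replicate 1 lay below both DMSO arrays. In contrast to Hif1a, the hydroxylase genes Egln1 and Egln3, which are themselves induced by hypoxia-inducible factor, differed between replicates. Egln1 measured 8.99 and 10.06 with DMSO and 8.78 and 9.19 with GSI. Egln3 measured 9.91 and 10.84 with DMSO and 9.62 and 10.25 with GSI. Both were highest on DMSO replicate 2, and their group differences of -0.54 and -0.44 did not pass (limma, adjusted p = 0.436 and 0.521).

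Bnip3 showed the largest difference between the DMSO arrays of all 18193 genes. It encodes a mitochondrial outer membrane protein that directs mitochondria to autophagy in hypoxia, and it measured 7.03 and 10.34 with DMSO and 7.84 and 9.09 with GSI. DMSO replicate 2 was 9.93-fold above DMSO replicate 1, and GSI replicate 2 was 2.38-fold above GSI replicate 1, which ranked 2 among all genes. Both GSI arrays lay between the DMSO arrays. The group difference of -0.22 accordingly had a 95% interval from -2.79 to 2.35 (limma, adjusted p = 0.938). Higd1a, encoding a hypoxia-inducible inner membrane protein, varied less, with 11.05 and 11.54 with DMSO and 10.83 and 11.16 with GSI and a group difference of -0.30 (adjusted p = 0.438).

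Ankrd37, an ankyrin-repeat gene known as a direct target of hypoxia-inducible factor, showed the largest difference between the GSI arrays of all genes. It measured 6.46 and 8.79 with DMSO and 5.67 and 7.49 with GSI. Replicate 2 exceeded replicate 1 by 5.04-fold with DMSO and 3.55-fold with GSI, and GSI replicate 2 stood above DMSO replicate 1. The group difference of -1.05 had a 95% interval from -3.20 to 1.11 (limma, adjusted p = 0.56).

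P4ha1, a catalytic subunit of collagen prolyl hydroxylase, measured 7.55 and 8.88 with DMSO and 7.34 and 8.13 with GSI. Ndrg1, a stress-induced gene of differentiation and metastasis control, measured 10.06 and 11.01 with DMSO and 9.76 and 10.40 with GSI. Hilpda, whose product sits on lipid droplets and restrains lipolysis, measured 7.23 and 7.83 with DMSO and 7.14 and 7.44 with GSI. In all 3 the replicates numbered 2 were the higher ones, and the group differences of -0.48, -0.46 and -0.24 did not pass (limma, adjusted p = 0.62, 0.516 and 0.582).

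Vegfa and Kdm3a differed between the DMSO arrays and hardly between the GSI arrays. Vegfa, the endothelial growth factor gene, measured 6.48 and 7.62 with DMSO and 6.77 and 6.85 with GSI. Kdm3a, encoding a histone demethylase, measured 9.39 and 10.15 with DMSO and 9.78 and 9.91 with GSI. In both, the GSI arrays fell between the DMSO arrays, and the group differences were -0.24 and 0.071 (limma, adjusted p = 0.757 and 0.909). P4ha2, the other catalytic subunit gene, was dim, between 3.86 and 4.79, with a difference of 0.93 between the DMSO arrays and -0.11 between the GSI arrays.

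Gys1, encoding muscle-type glycogen synthase, measured 7.08 and 7.49 with DMSO and 6.97 and 6.97 with GSI, and both GSI arrays lay below both DMSO arrays (difference -0.32; limma, adjusted p = 0.282). Ankzf1, a factor of ribosome quality control, Wsb1, a ubiquitin ligase adaptor gene, and Zfp395, a transcription factor gene, ranged over 0.51, 0.23 and 0.24 on the 4 arrays. Their group differences were -0.042, 0.0008 and 0.065, with adjusted p of 0.933, 1 and 0.792 by limma. Ankzf1 was the member with the most negative GSI replicate difference, -0.21, while 2 of its dimmer probe sets had 0.40 and 0.31.

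Ddit4 was the 1 gene of the 34 higher with GSI at an unadjusted p under 0.05. It encodes an inhibitor of mTOR signalling that responds to hypoxia and to several other stresses. It measured 8.89 and 9.15 with DMSO and 9.47 and 9.69 with GSI, so both GSI arrays lay above both DMSO arrays, by 1.47-fold on average (difference 0.56, SE 0.13; limma, adjusted p = 0.0766). The replicates within a group differed by 0.26 and 0.22, less than the groups did. It did not pass as fitted, but did when genes with a mean under 5 were dropped (adjusted p = 0.0357) or the prior was made robust with an intensity trend (adjusted p = 0.0148), and not under the other alternatives.

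Across the set, the shared ordering of the arrays was the clearest regularity. A difference of 0.5 or more on the log2 scale between the DMSO arrays, with replicate 2 higher, occurred in 25 of the 34 genes and in 1.03% of all genes. Differences of 1 or more occurred in 14 of the 34 and in 0.181% of all genes. Both groups differed by 0.5 or more in 12 of the 34 and in 0.148% of all genes, that is 27 genes. DMSO replicate 2 was the highest of the 4 arrays for 29 of the 34, against 21% of all genes. DMSO replicate 1 was the lowest for 12, against 22.8%, and GSI replicate 1 for 21, against 27.4%. The set was chosen for these differences, so the shares describe it and are no evidence about it.

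Within the set, genes with a larger difference between the DMSO arrays had a larger one between the GSI arrays (Pearson r = 0.76, Spearman rho = 0.68 over 34 genes, and r = 0.64 without Bnip3 and Ankrd37). These 2 differences share no array, but the genes share the same 4 arrays and are not independent. Over all 18193 genes Pearson r was 0.085 and Spearman rho 0.002. The set was chosen with both differences known, so its correlation is a description and no evidence about it. The DMSO difference was the larger of the 2 in 32 of the 34 genes, the exceptions being Hif1a and Wsb1, against 49% of all genes.

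**Figure D2:**
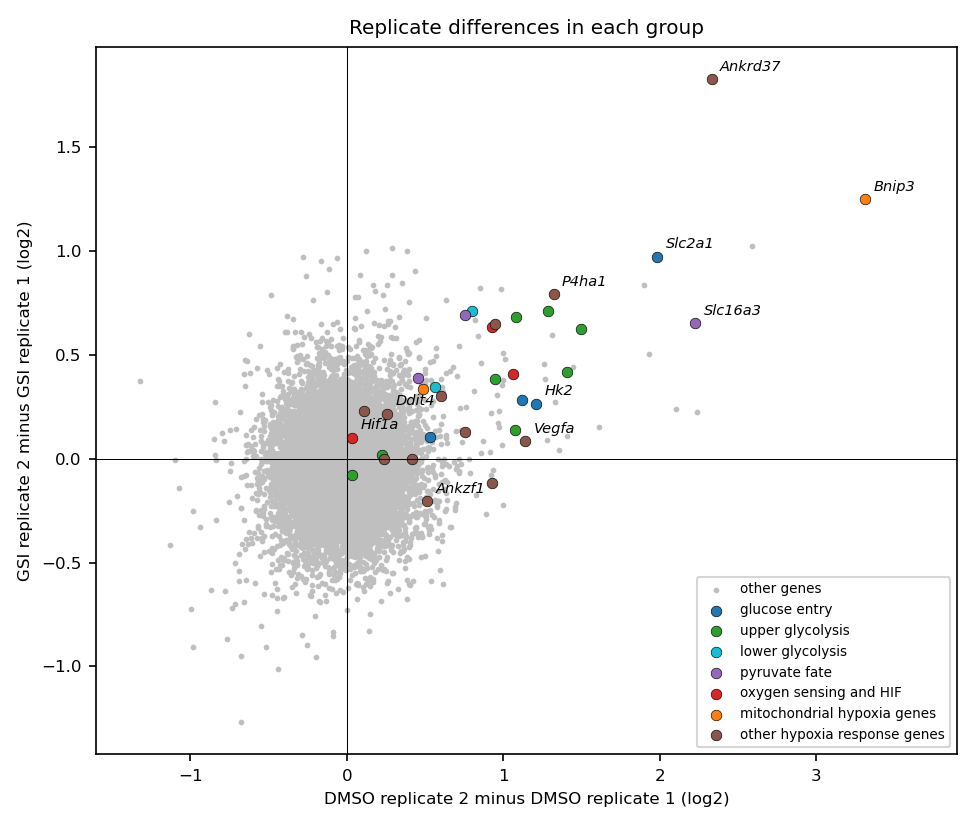
Each point is a gene, placed by its log2 difference between the DMSO arrays (horizontal) and between the GSI arrays (vertical), replicate 2 minus replicate 1, with the 34 genes coloured by role and all others in grey. Bnip3 and Ankrd37 lie farthest out, and Hif1a lies near the origin at 0.036 and 0.10.

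Further probe sets of the same genes, which did not stand for them, mostly gave the same order of arrays. There were 41 such probe sets for 20 genes. Of the 32 with a mean log2 value of at least 5, 31 were higher on DMSO replicate 2, 31 on GSI replicate 2 and 30 on both. At the gene level these shares were 44.2%, 45.9% and 19.9% of all genes. Of the 9 dimmer ones, 7 were higher on DMSO replicate 2, while those of Aldoc, Ankzf1 and Hif1a were lower on GSI replicate 2. The 2 other Slc2a1 probe sets differed by 1.96 and 2.08 between the DMSO arrays, and the 4 other Ndrg1 probe sets by 0.75 to 0.99. They read the same RNA on the same arrays and are no further replicates. Of the 34 probe sets in use, 5 carry a suffix of probes that may bind related transcripts, those of Slc2a3, Aldoa, Tpi1, Ndrg1 and Ankzf1.

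Between GSI and DMSO, 0 of the 34 genes passed limma in either direction, where 4.12% of all genes did, 2.56% higher and 1.56% lower. With any 1 of the 4 arrays left out, the calls over all genes dropped from 466 to between 0 and 1 higher and from 284 to between 0 and 5 lower, with each lone array assumed to vary like the other group. At an unadjusted p under 0.05, Slc2a3, Hk2, Pgam1 and Ldha were lower and Ddit4 was higher, that is 4 and 1 of 34, against 10.7% and 10.8% of all genes. Both GSI arrays lay below both DMSO arrays in 5 of the 34 (those 4 and Gys1), against 27.7% of all genes, and above them in 3 (Aldoc, Hif1a and Ddit4), against 23.7%. The mean was lower with GSI in 26 of the 34, against 53% of all genes, with a median difference of -0.31 against -0.01. The genes were chosen with their group differences known too, so these values describe the set and are no evidence about it. In these bulk samples fewer cells with a given transcript and less of it per cell cannot be told apart.

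The size of the group difference depended on the control array used. Measured against DMSO replicate 2 alone, the median difference of the 34 genes was -0.74. Against DMSO replicate 1 alone it was 0.09, on the other side of 0. Bnip3 went from -1.88 to 1.43, Slc2a1 from -1.83 to 0.15 and Ankrd37 from -2.21 to 0.12 between these 2 references. Against either array alone 11 genes were lower with GSI and 3 (Aldoc, Hif1a and Ddit4) were higher. The 11 were Hk2, Slc2a3, Pgam1, Ldha, Pfkl, Tpi1, Pgk1, Gys1, Pfkfb3, Higd1a and Egln1. The first 4 of these were at -0.46, -0.44, -0.43 and -0.25 against DMSO replicate 1, the nearer of the 2, and Egln1 was at -0.0073. Leaving out 1 array at a time, 20 of the 34 genes changed sign at least once and 14 did not. The same shares over all genes were not computed, so the counts in this paragraph only describe the set.

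**Figure D3:**
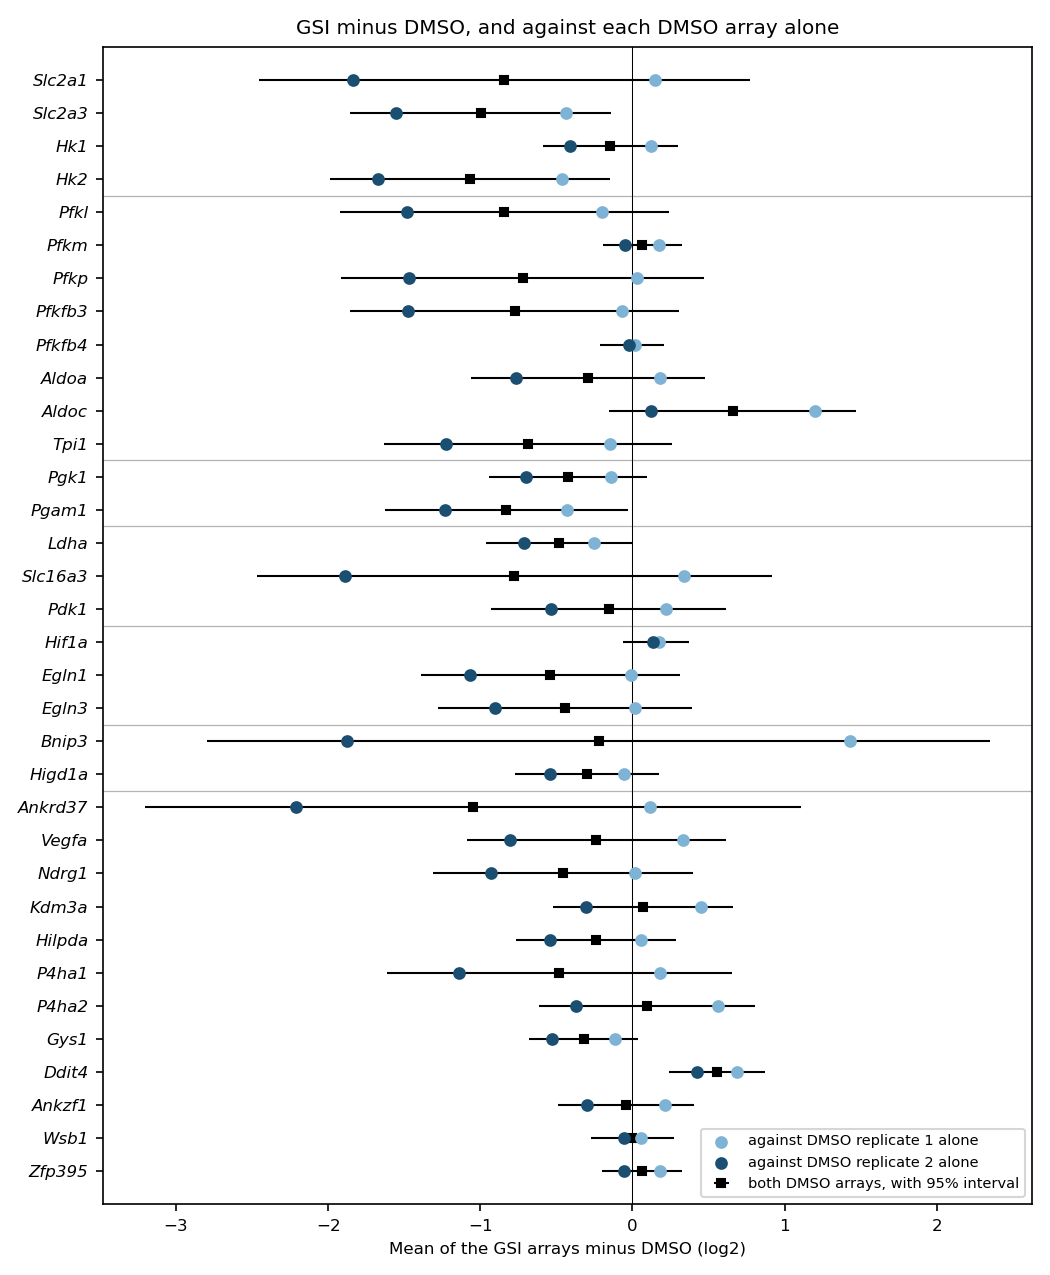
Log2 difference of the GSI mean from DMSO for the 34 genes, with black squares for both DMSO arrays and bars for the 95% interval of the limma fit, light circles for DMSO replicate 1 alone and dark circles for DMSO replicate 2 alone. The circles of a gene lie apart where its DMSO arrays differed, as for Bnip3 at 1.43 and -1.88, while Ddit4 stays above 0 at 0.69 and 0.43.

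Other genes of these pathways were taken from lists chosen, like the set itself, with earlier results known. Of 29 measured further targets of hypoxia-inducible factor, 1 rose and 2 fell, against the 2.56% and 1.56% of all genes above. Rora, a nuclear receptor gene, measured 6.14 and 6.90 with DMSO and 7.76 and 8.01 with GSI and rose by 1.37 (limma, adjusted p = 0.0455). Car12, encoding a membrane carbonic anhydrase, measured 6.84 and 6.80 with DMSO and 5.72 and 5.93 with GSI, a change of -0.99 (adjusted p = 0.01). The transcription factor gene Nfil3 measured 5.69 and 5.71 with DMSO and 4.61 and 4.78 with GSI, a change of -1.002 (adjusted p = 0.00911). Car12 and Nfil3 hardly differed between replicates, by 0.20 at most.

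These further targets also differed between the DMSO arrays, and the median was 0.36. Of the 29, 12 were higher on DMSO replicate 2 by 0.5 or more, against 1.03% of all genes. On GSI replicate 2 the same held for 3, against 0.753% of all genes. Named after their values were seen, Bhlhe40, Stc2 and Adm had differences of 2.24, 2.10 and 1.41 between the DMSO arrays and of 0.22, 0.24 and 0.11 between the GSI arrays. Bhlhe40 is a transcriptional repressor gene, Stc2 encodes a secreted glycoprotein and Adm the vasodilator adrenomedullin. Car9, often used as a marker of hypoxia, stayed between 4.71 and 4.85 on all 4 arrays, which is near the array medians.

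Of 19 measured further glycolysis genes 1 fell, against 1.56% of all genes, and 0 rose, against 2.56%. The 1 was Pgam2, the muscle-type phosphoglycerate mutase gene. It measured 5.14 and 5.03 with DMSO and 4.61 and 4.62 with GSI (limma, adjusted p = 0.0477). These values lay near the array medians with DMSO and below them with GSI, so the size of the change is uncertain. The list's median difference between the DMSO arrays was -0.05, but its members split, and those named next were chosen after their values were seen. Pkm, encoding the pyruvate kinase of most tissues, measured 11.63 and 12.47 with DMSO and 11.12 and 11.71 with GSI, and Pgm1, which feeds glycogen-derived sugar into glycolysis, measured 8.02 and 9.03 with DMSO and 7.56 and 8.04 with GSI. Both followed the order of arrays seen in the 34 genes. Ldhb, the lactate dehydrogenase subunit gene that favours pyruvate, measured 10.27 and 10.22 with DMSO and 10.50 and 10.27 with GSI. Slc16a1, another monocarboxylate transporter gene, measured 11.75 and 11.76 with DMSO and 11.92 and 11.89 with GSI. Neither showed replicate 2 higher in both groups, in contrast with their relatives Ldha and Slc16a3.

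Of 12 further genes of oxygen sensing 0 passed limma, against 4.12% of all genes. At an unadjusted p under 0.05 Arnt was higher and Epas1 lower, 1 of 12 each way against 10.8% and 10.7% of all genes, so these counts are near the background. Arnt differed by 0.22 and Epas1 by -0.47 (adjusted p = 0.232 and 0.186). Egln2, the hydroxylase gene not known to be induced by hypoxia and named after its values were seen, lay between 8.85 and 8.96. Of the 12 genes, 0 were higher on DMSO replicate 2 by 0.5 or more, against 1.03% of all genes, which is also near the background.

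Genes of neighbouring pathways of glucose carbon had small differences between replicates. Of 6 genes of the pentose phosphate pathway 0 passed limma and 1 was lower at an unadjusted p under 0.05, counts near the 4.12% and 10.7% of all genes. Their DMSO replicate differences ran from -0.10 to 0.12 and their GSI ones from -0.092 to 0.066. Pgd, encoding a dehydrogenase of the pathway, was highest on DMSO replicate 2, with 10.72 and 10.84 with DMSO and 10.60 and 10.60 with GSI, and its GSI arrays were alike. Pgd and the isomerase gene Rpia differed between groups by -0.18 and -0.26 (adjusted p = 0.32 and 0.173).

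Of 19 genes of pyruvate dehydrogenase and the citric acid cycle 0 passed limma, against 4.12% of all genes. At an unadjusted p under 0.05, 5 of the 19 were lower with GSI, against 10.7% of all genes, and 10 had both GSI arrays below both DMSO arrays, against 27.7%. Dlst and Dlat, encoding acyltransferase subunits of the ketoglutarate and pyruvate dehydrogenase complexes, differed by -0.31 and -0.33 (adjusted p = 0.106 and 0.12). Replicate 2 was the higher DMSO array in 3 of the 19, against 44.2% of all genes, and the higher GSI array in 12, against 45.9%. In both counts there was 1 gene, Ogdh, against 19.9% of all genes. GSI replicate 1 was the lowest of the 4 arrays for 11 of the 19, against 27.4% of all genes, and DMSO replicate 2 the highest for 1, against 21%. The differences ran from -0.24 to 0.11 between the DMSO arrays and from -0.17 to 0.23 between the GSI arrays.

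**Figure D4:**
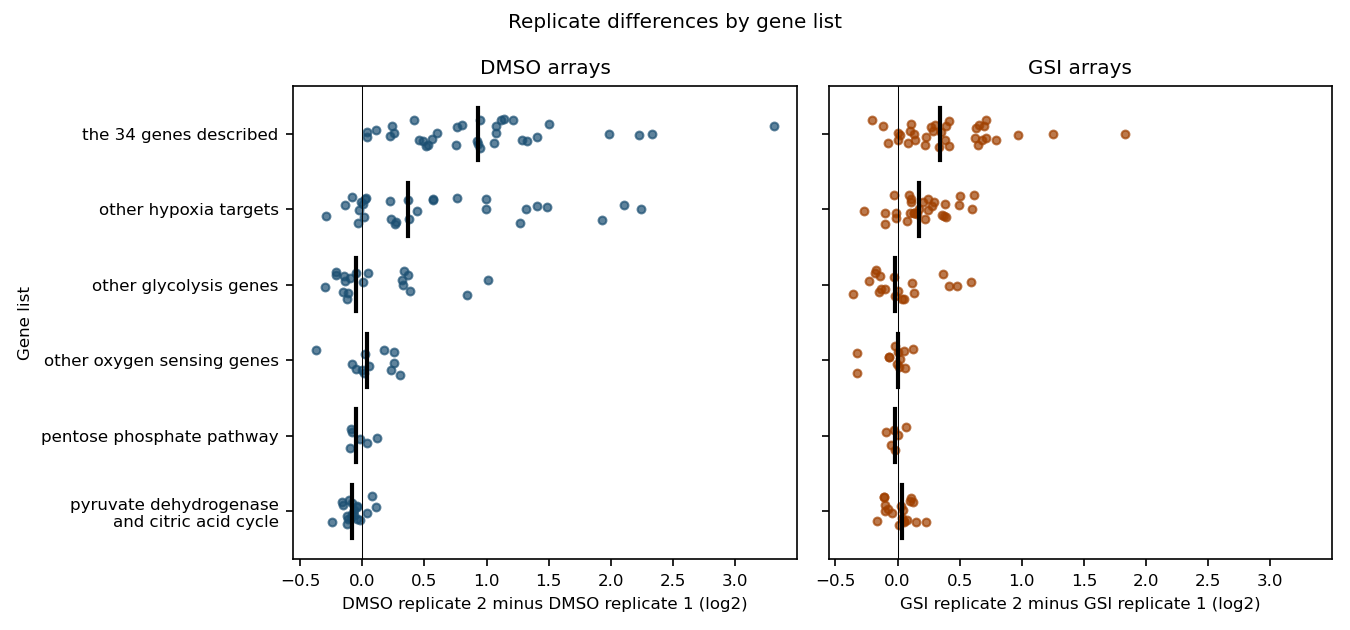
Log2 difference between replicate 2 and replicate 1 for each gene of 6 lists, in DMSO (left) and GSI (right), with a black bar at each list's median and random vertical scatter within a list. The medians between the DMSO arrays were 0.93 for the 34 genes, 0.36 for further hypoxia targets and -0.049, 0.035, -0.049 and -0.082 for the other lists from top to bottom.

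Ranked by the smaller of their 2 replicate differences, 6 of the first 10 of all 18193 genes and 12 of the first 20 belonged to the set. The set was assembled with these differences known, so the counts describe it and are no evidence about it. The 10 highest-ranked genes outside it were Tmem45a, Prelid2, H3c4, Apbb1, Dlx1, Popdc3, Kdm7a, Plod2, Ak4 and Pkm. Tmem45a, a transmembrane protein gene, measured 6.29 and 8.88 with DMSO and 5.79 and 6.82 with GSI. Plod2, encoding a lysyl hydroxylase of collagen, measured 8.27 and 9.76 with DMSO and 7.87 and 8.49 with GSI, and Ak4, a mitochondrial adenylate kinase gene, 8.31 and 9.62 with DMSO and 8.61 and 9.21 with GSI. All 3 were highest on DMSO replicate 2. Kdm7a, a histone demethylase gene, measured 6.34 and 7.83 with DMSO and 7.85 and 8.48 with GSI and differed in that its GSI arrays lay above both DMSO arrays. These 10 were picked by the spread that the limma fit takes as its error, so no test between groups is given for them.

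Markers of other cell types were followed beside these differences. The summed linear level of 6 measured B cell markers was 129 on each DMSO array, 137 on GSI replicate 1 and 121 on GSI replicate 2, and that of 8 myeloid markers was 228 and 218, then 246 and 212. For 8 stromal and epithelial markers it was 684 and 630, then 478 and 488, with Pdgfrb at 7.39 to 8.77 (lower with GSI) and Pecam1 at 6.92 to 7.58 (higher with GSI) above the other 6. For 4 erythroid markers it was 186 and 223, then 207 and 184. In all 4 erythroid markers replicate 2 was the higher DMSO array and the lower GSI array. Of all genes, 44.2% were higher on DMSO replicate 2 and 45.9% on GSI replicate 2. Gata1 lay at 4.24 to 4.68 and Hba-a1 at 4.14 to 4.51, below the array medians. Klf1 measured 4.26 and 5.05 with DMSO and 4.92 and 4.85 with GSI, a DMSO difference of 0.79 in the direction of the 34 genes. Epor lay higher, with 7.02 and 7.20 with DMSO and 7.01 and 6.82 with GSI. The 8 T lineage markers summed to 23021 and 22721 with DMSO and 24348 and 23215 with GSI. Of these 8, 3 passed limma at an adjusted p under 0.05, against 4.12% of all genes. Cd3g was lower with GSI, and Cd247 and Thy1 were higher. None of the 5 marker lists had a member higher on replicate 2 in both groups except the stromal and epithelial list, with Epcam. The share over all genes was 19.9%. The part of other cells in the differences between arrays was not tested.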

How the data were processed

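RNA of T29 cells was measured on 4 Affymetrix arrays, 2 with DMSO and 2 with GSI. The deposited values are log2 expression per probe set, made with RMA per the submitters' processing notes; no source used here states its version. RMA corrects background and forces the arrays to one distribution, so a shift shared by most genes would be removed. Of 45101 probe sets, 64 controls were left out. Platform annotation paired 34945 of the others with 1 gene, 932 with several and 9160 with none, and symbols were updated by gene ID for 34741. The brightest probe set stood for each of 18193 genes.

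Groups were compared with limma 3.58.1 in R 4.3.3 (lmFit, eBayes, Benjamini-Hochberg over all genes, threshold 0.05), tested first on simulated data. Intervals are 95% from the same fit. With 2 arrays per group, array number limits the precision. All members, and genes of the other lists that passed or had the smallest p, were named by rule. Members and lists were chosen with earlier results of these data known. Alternatives were the probe set rule, dim genes, prior, centring, loess, replicate block and each array left out.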

Additional observations from a re-analysis of the deposited data

How the results depend on the processing

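The counts over all genes depended on the settings, and those over the 34 genes little. With dim genes left out (mean log2 under 5), 919 genes passed as higher with GSI and 714 as lower, and with an intensity trend and robust prior 1042 and 899, against 466 and 284. With the replicate block they were 147 and 70. With 1 array left out they ranged from 0 to 1 and from 0 to 5. Of the 34 genes, 1 (Ddit4) passed as higher with dim genes left out and 1 with the trend and robust prior. As lower, 1 passed with the replicate block, Pgam1 at -0.83 (limma, adjusted p = 0.0495). The groups share replicate numbers, and the labels do not say that a number marks a shared batch, day or culture. The differences between replicates correlated between groups at 0.085 over all genes and at 0.76 over the 34 genes, which were chosen for them. Whether the numbers mark a shared batch was not tested, and the blocked values stand as an alternative. The median GSI minus DMSO of the 34 genes was -0.739 without DMSO replicate 1, 0.088 without DMSO replicate 2, -0.131 without GSI replicate 1 and -0.549 without GSI replicate 2. It kept its sign under the settings that used all arrays. The median replicate difference stayed between 0.797 and 0.930 in DMSO and between 0.331 and 0.371 in GSI. Wsb1 changed sign with arrays centred on their medians (-0.0001). With 1 array left out, 20 genes changed sign, Aldoa from -0.77 to 0.18, Ankrd37 from -2.21 to 0.12, Ankzf1 from -0.30 to 0.22, Bnip3 from -1.88 to 1.43, Egln3 from -0.91 to 0.021, Hilpda from -0.54 to 0.058, Hk1 from -0.41 to 0.12, Kdm3a from -0.31 to 0.45, Ndrg1 from -0.93 to 0.017, P4ha1 from -1.14 to 0.18, P4ha2 from -0.37 to 0.56, Pdk1 from -0.53 to 0.22, Pfkfb4 from -0.042 to 0.038, Pfkm from -0.046 to 0.18, Pfkp from -1.47 to 0.028, Slc16a3 from -1.89 to 0.34, Slc2a1 from -1.83 to 0.15, Vegfa from -0.81 to 0.33, Wsb1 from -0.11 to 0.12 and Zfp395 from -0.053 to 0.18. The share of all genes that changed sign was not computed, and the cause was not tested. Probe sets near background limit Slc16a3 and P4ha2.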

Other observations

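Replicate 2 was the higher array in both groups in 19.9% of all genes. Genes with replicate 1 higher in both groups are named here, chosen after their values were seen. The 5 with the largest such differences were Cxcr6, a chemokine receptor gene, G0s2, a lipolysis inhibitor gene, Usp18, an interferon-induced protease gene, Trim16, and Gja1, a gap junction gene. Cxcr6 measured 4.82 and 3.84 with DMSO and 6.70 and 5.79 with GSI. Gja1 measured 9.76 and 9.04 with DMSO and 9.55 and 8.84 with GSI. Replicate 1 was the higher array in each group for both.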
